A study of Mus musculus with 7 samples.

Results

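The lysyl oxidase family was followed through 7 arrays of mouse tissue by its listed genes Lox, Loxl1, Loxl2, Loxl3 and Loxl4. A gene was measured here by the probe sets that the platform annotation gives to it and to no other gene, and the probe set with the highest mean over the 7 arrays stood for the gene. By that rule 4 of the 5 genes were measured, with 8 probe sets in all, among 18194 genes and 45037 probe sets of the array. Both probe sets that name Loxl2 also name a second gene, and they were left out, so Loxl2 was not analysed here. The arrays held bladders of male FVB/N mice with an SMGA/EGFP transgene, in which the promoter of Actg2 (smooth muscle gamma-actin) drives enhanced green fluorescent protein, a reporter. There were 3 adult bladders (Theiler stage 28) and 3 bladders of postnatal day 1 (Theiler stage 27, called P1 below), each dissected whole and not pooled. The last array was a common reference of wild-type FVB/N whole newborns of postnatal day 1, with 4 males and 4 females in 1 pool. The reference's title speaks of bladders, but its source and protocol describe whole mice, and it was taken as whole newborns.

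Lysyl oxidases are copper-dependent amine oxidases that turn lysines of collagen and elastin into reactive aldehydes, from which the covalent cross-links of the matrix form. Lox is secreted as an inactive pro-enzyme and released by Bmp1 and related proteases. Loxl1 is known for the upkeep of elastic fibres, while Loxl2, Loxl3 and Loxl4 carry scavenger receptor cysteine-rich domains in front of the shared catalytic domain. In a hollow organ such as the bladder, cross-linked collagen and elastin set the stiffness and recoil of the wall.

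The label of the tissue was checked against markers. The mean log2 value of 7 smooth muscle markers was 14.58 to 15.22 in the bladders and 11.76 in the whole newborn, and that of 8 urothelial markers was 12.70 to 13.40 against 10.07. Adult replicates 1 and 3 also held transcripts of male accessory glands: 7 of 8 listed markers were measured, none was listed at 0, and the summed intensity in these arrays was 9327 and 9267, next to 202 for adult replicate 2 and 111 to 183 for P1 bladders. Signal of the hybridization spike-ins, relative to the lowest array, was highest among bladders in adult replicate 2 (2.33 times) and P1 replicate 3 (1.67 times). The whole newborn stood at 1.81 times. Array medians lay between 209 and 312 in the bladders and at 434 in the whole newborn. Adult tissue had been kept in liquid nitrogen and P1 tissue in a freezer, so age and storage cannot be told apart.

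Adult against P1 bladder asks how the growing and the mature organ differ. Lox was far lower in adult bladder, about 7-fold by its mean, and it was the single member of the 4 that passed the test. Loxl1 and Loxl4 had lower means in adult bladder without passing it, and Loxl3 differed least. Of all probe sets tested in this comparison, 7.85% passed in either direction and 4.12% passed as lower in adult bladder. The test was limma's, at a Benjamini-Hochberg adjusted p under 0.05 over 23304 probe sets, on log2(intensity + 49).

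The intensity of Lox, which cross-links both collagen and elastin, was 5794, 6129 and 4323 in adult replicates 1 to 3 and 44119.9, 39007 and 30697 in P1 replicates 1 to 3. The groups lay far apart: the lowest P1 bladder was 5.01 times the highest adult bladder, while the spread within either group was about 1.4-fold from lowest to highest (1.42 in adult, 1.44 in P1). The means were 5415 ± 961 in adult and 37941.5 ± 6774 in P1 bladder (SD, n = 3 each). The log2 difference was -2.80 with an SE of 0.23, a 95% interval of -3.33 to -2.27 and a limma adjusted p of 0.000804. Its p ranked 17 among the 23304 tested. In P1 bladder Lox stood above 98.7% to 99.4% of the probe sets of its array, and in adult bladder above 88.3% to 91.7%.

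**Figure D1:**
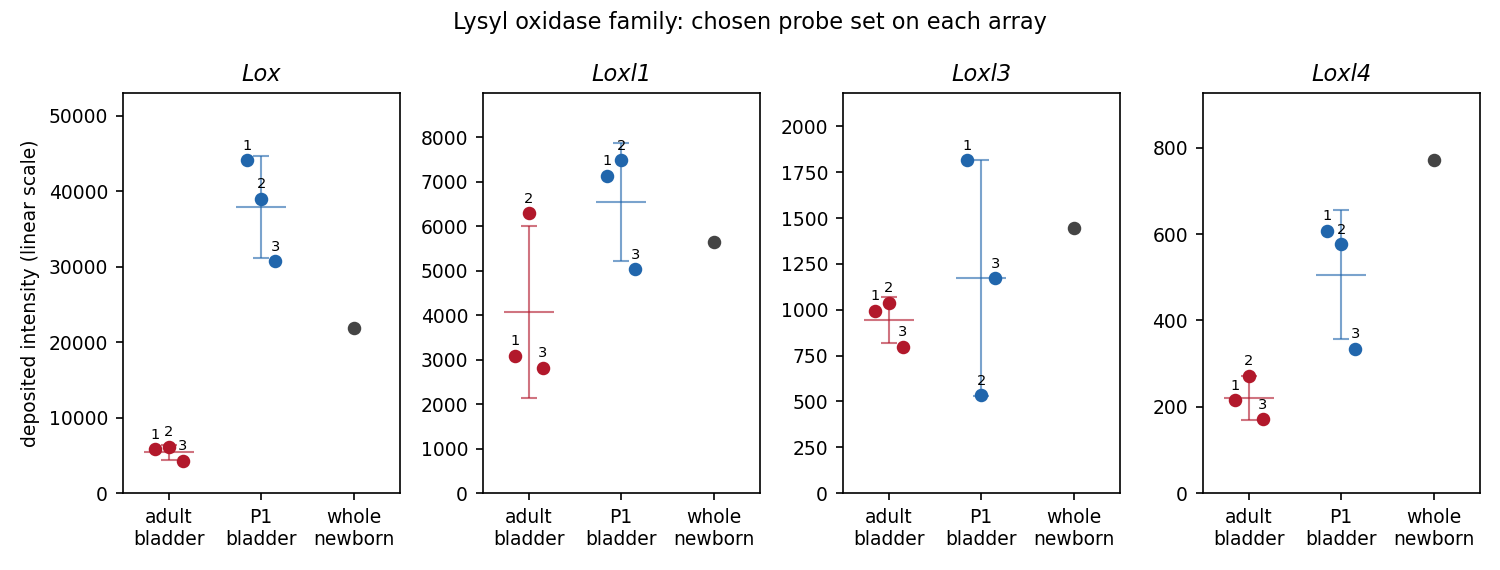
Deposited intensity (y axis, linear, from 0, a scale of its own for each gene) of the probe set that stands for each gene, with 1 point an array, numbers giving the replicate, and bars giving the mean and SD of the 3 adult or 3 P1 bladders. Lox and Loxl4 have all 3 adult points under all 3 P1 points, as do 14.8% of all tested probe sets. Loxl1 and Loxl3 do not, and adult replicate 2 (6294) lies with the P1 bladders for Loxl1.

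The fall of Lox was seen on 2 of its 3 probe sets. The second, 1448228_at, was annotated from the same transcript record as the first and read 287, 700 and 389 in the adult bladders, in replicate order, and 2455, 3188 and 9038 in the P1 bladders. Again no adult bladder reached a P1 bladder, a pattern that 14.8% of all tested probe sets had. The log2 difference of -3.13 (SE 0.51, limma adjusted p = 0.00824) had an interval, -4.27 to -1.98, that holds the value of the first. The 2 probe sets ordered the P1 bladders differently: replicate 3 was lowest on the first and highest on the second. That array also had the lowest 3' to 5' ratio of Actb, a sign of RNA quality (1.85, against 3.18 and 3.70 in the other P1 bladders), whose part in the order was not tested. The third, 1437903_at, lay under the array median on all 7 arrays (39.5 to 153) and was not tested.

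**Figure D2:**
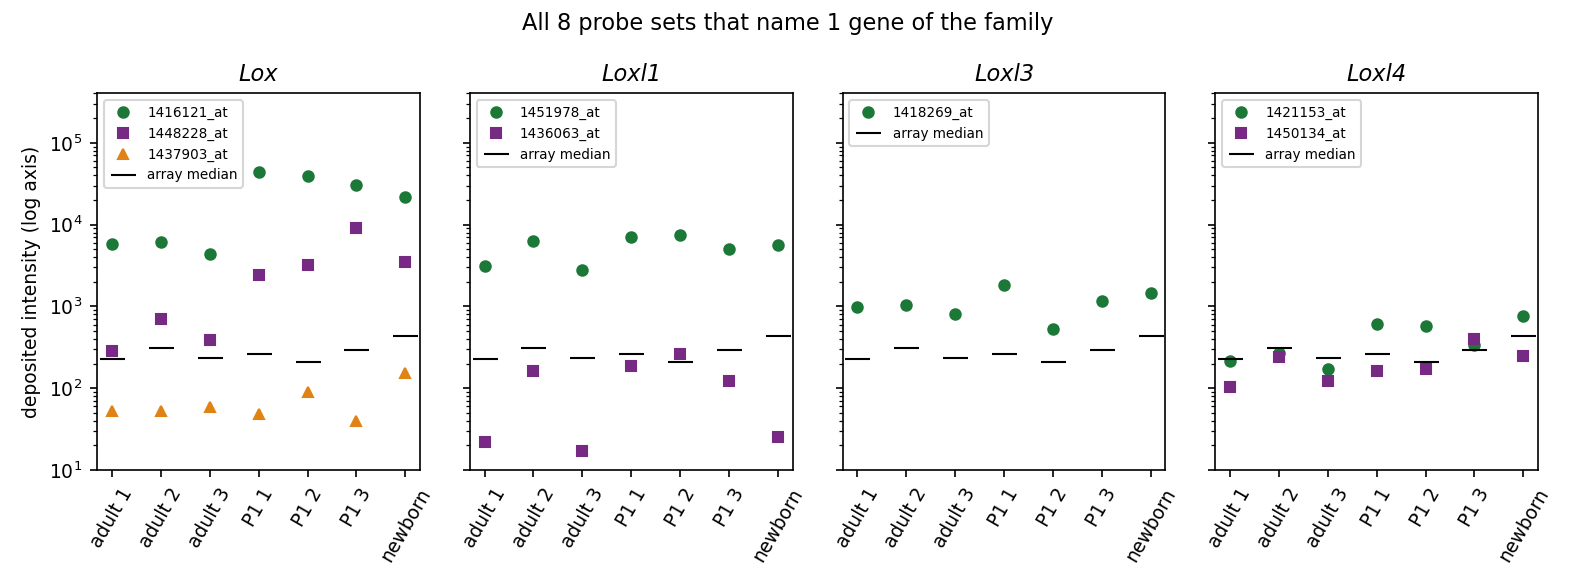
Deposited intensity (y axis, log scale) of all 8 probe sets on the 7 arrays (x axis), with a horizontal mark at the median of each array. For Lox, 1416121_at and 1448228_at fall together in the adult arrays, and 1437903_at stays under the median on every array. The second probe sets of Loxl1 and Loxl4 each exceed the median on 1 array.

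Loxl1, the member tied to elastic fibre upkeep, read 3086, 6294 and 2815 in adult replicates 1 to 3 and 7134, 7483 and 5026 in P1 replicates 1 to 3. Adult replicate 2 lay inside the P1 range, and the other 2 adult bladders lay under it. The means were 4065 ± 1935 in adult and 6548 ± 1329.7 in P1 bladder (SD, n = 3 each), and the log2 difference of -0.76 (SE 0.35, 95% interval -1.53 to 0.02) did not pass (limma adjusted p = 0.223). Without adult replicate 2 it was -1.12 and passed (limma adjusted p = 0.0384). Without the 2 adult bladders that held gland transcripts, replicates 1 and 3, it was -0.04, with replicate 2 as the 1 adult array left. Over the other alternatives run, the limma adjusted p ranged from 0.0138 to 0.537. The summed levels of smooth muscle and fibroblast markers were also highest in adult replicate 2. The summed intensity of 7 of 7 smooth muscle markers was 384084 in adult replicate 2 and 236657 and 238046 in replicates 1 and 3, against 243007 to 323315 in P1 bladders. That of 7 of 7 fibroblast markers was 135513 in adult replicate 2 and 84266 and 82065 in replicates 1 and 3, against 83238 to 117451 in P1 bladders. Single markers differed: Myh11 (39151, against 53170 and 48828) and Smtn (7175, against 7269 and 7575) were lowest in that array among adults. Lum and Pdgfra lay between adult replicates 1 and 3 there. No marker of either list was at 0, and their part in the Loxl1 values was not tested. In whole organs, fewer cells of a type and less RNA per cell cannot be told apart.

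The other probe set of Loxl1, 1436063_at, was dim, at 17.3 to 163 in adult and 121 to 265 in P1 bladders. It exceeded the array median on 1 of the 6 bladder arrays and was not tested between the ages. There too adult replicate 2 (163) was the highest adult array by a wide margin, next to 21.8 and 17.3.

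Loxl3, a member with scavenger receptor domains that is required for palate development in the mouse, showed no shift that the arrays could resolve. It read 996, 1038 and 799 in adult replicates 1 to 3 and 1816, 533 and 1171 in P1 replicates 1 to 3. The adult bladders lay close together, within 1.30-fold, and inside the P1 range, which spanned 3.41-fold. The log2 difference was -0.15 (SE 0.43, limma adjusted p = 0.871), with a 95% interval from -1.12 to 0.81 that does not leave out a change of 1 log2 unit down.

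Loxl4, another member with scavenger receptor domains, read 215, 272 and 171 in adult replicates 1 to 3 and 608, 576 and 334 in P1 replicates 1 to 3. All 3 adult bladders lay under all 3 P1 bladders, a pattern that 14.8% of the tested probe sets had in this direction and 29.2% in either. The adult values were also under the median of their arrays, so the gene entered the test through the P1 bladders alone. Means were 219.7 ± 50.8 in adult and 506 ± 149.6 in P1 bladder (SD, n = 3 each), and the log2 difference of -1.02 (SE 0.40, interval -1.91 to -0.13) did not pass (limma adjusted p = 0.153, and 0.0320 to 0.524 over 15 alternatives). The second probe set, 1450134_at, overlapped between the ages (103 to 241 in adult, 164 to 401 in P1) and was too dim to be tested. As with Lox, its highest P1 value was in replicate 3, which was the lowest P1 bladder on the brighter probe set.

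Levels of different probe sets cannot be compared, but the distance between 2 of them on the same array, in log2 units, can be followed from array to array. The distance of Lox over Loxl1 was 0.90, -0.04 and 0.61 in adult replicates 1 to 3 and 2.62, 2.37 and 2.60 in P1 replicates 1 to 3. The distance thus dropped by 2.04 log2 units from P1 to adult bladder, and the groups did not overlap. The distance of Lox over Loxl3 dropped by 2.64 units (2.37 to 2.51 in adult, 4.57 to 6.07 in P1), and that over Loxl4 dropped by 1.77 units (4.26 to 4.47 in adult, 5.96 to 6.33 in P1). Each of these 3 distances had an exact 2-sided permutation p of 0.1, the smallest that 3 against 3 arrays can give, and 0.15 after adjustment over all 6 pairs of members. Loxl1 against Loxl4 overlapped between the ages (3.57 to 4.30 in adult, 3.45 to 3.73 in P1; exact permutation p = 0.5), and so did Loxl1 against Loxl3 (exact permutation p = 0.5). Loxl3 over Loxl4 did not overlap, at 1.76 to 1.98 in adult and -0.10 to 1.67 in P1 bladder (exact permutation p = 0.1, adjusted 0.15). With a smallest possible p of 0.1, none of the 6 pairs could have passed. The permutation test therefore cannot decide whether a distance changed with age. The 3 distances from Lox all contain the Lox values, so they are not separate evidence from the fall of Lox. How often other pairs of genes lack overlap was not tested.

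**Figure D3:**
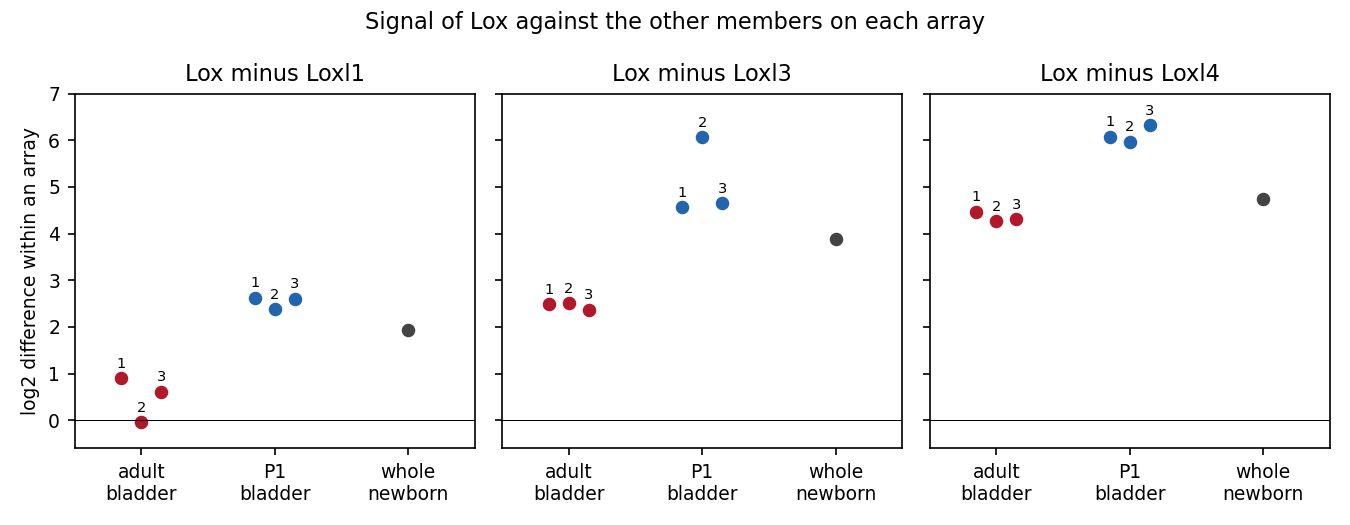
Log2 difference between Lox and another member on the same array (y axis), for adult bladders, P1 bladders and the whole newborn, with 1 point an array and the replicate number above it. The adult points lie under the P1 points in each panel, with Lox minus Loxl1 at -0.04 to 0.90 in adult and 2.37 to 2.62 in P1 bladder; the height of a panel depends on the probe sets and is not a ratio of transcripts.

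Both bladder groups were also set against the whole newborn body, a wild-type pool of both sexes. Organ, genotype and sex differ together in these comparisons, and age as well for adult bladder, so their parts cannot be told apart. This reference is 1 array, taken to vary as the bladder arrays do, and the 2 comparisons share it. Lox read 21822 in the whole newborn, between the 2 ages of bladder: P1 bladder stood at 174% of it by the mean (141% to 202% by array) and adult bladder at 24.8%. Adult bladder was lower by a log2 difference of -2.02 (SE 0.33, limma adjusted p = 0.00516), where 11.6% of 28062 tested probe sets passed in either direction, 4.4% as higher and 7.2% as lower. The second Lox probe set gave -2.88 (limma adjusted p = 0.0338). P1 bladder differed from the whole newborn by 0.78 (SE 0.33, interval 0.04 to 1.52), which did not pass (limma adjusted p = 0.194, with 7.42% of 28316 tested probe sets called, 2.3% as higher and 5.12% as lower). On the second Lox probe set the P1 bladders lay on both sides of the whole newborn (3470), at 70.7% to 260% of it, with a log2 difference of 0.25 (limma adjusted p = 0.882). Lox thus had the order adult bladder, whole newborn, P1 bladder. The difference between the upper 2 neighbours did not pass after adjustment, though on the brighter probe set the limma p before adjustment was 0.0401.

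When arrays were centred on their medians, Lox was the 1 member of 4 that kept its order of groups, and Loxl4 took that same order there (8.14, 9.10 and 9.18 in log2 units for adult bladder, whole newborn and P1 bladder). Centring moved the median difference of all tested probe sets from -0.15 to 0.53 for P1 bladder and from -0.17 to 0.50 for adult bladder. With centring, Lox in P1 bladder was above the whole newborn by 1.46 and passed (limma adjusted p = 0.0488), and in adult bladder it was still lower, by -1.35 (limma adjusted p = 0.0490).

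No other member passed against the whole newborn. Loxl1 read 5654 there, within the P1 range, with differences of 0.19 for P1 (limma adjusted p = 0.866) and -0.57 for adult bladder (0.509). The dim Loxl1 probe set read 25.6 in the whole newborn, under every P1 bladder, with a difference of 1.64 (SE 0.80, limma adjusted p = 0.267). Its sign was that of the brighter probe set, and its interval, -0.17 to 3.45, holds the 0.19 found there. The dim probe set entered this comparison through P1 replicate 2 alone (265, against an array median of 209). Loxl3 read 1444, with differences of -0.44 (limma adjusted p = 0.733) and -0.60 (0.596). Loxl4 read 771.5 on its brighter probe set, above all 6 bladders, with -0.60 for P1 (limma adjusted p = 0.573) and -1.63 for adult bladder (interval -2.87 to -0.38, adjusted p = 0.0948). Its second probe set, 1450134_at, read 250.8 in the whole newborn, inside the P1 range (164 to 401), with -0.12 for P1 (SE 0.67). That probe set entered the P1 comparison through P1 replicate 3 alone and was not tested for adult bladder. The adult values of Loxl4 were under the medians of their arrays, so it entered the adult comparison through the whole newborn alone. With that limit, the adult value of Loxl4 passed in 4 of 18 alternatives, among them array weights (limma adjusted p = 0.0127) and 1 probe set a gene (0.0490). With centring, Loxl1 and Loxl3 turned to 0.10 and 0.07 in adult bladder, and Loxl3 and Loxl4 to 0.24 and 0.08 in P1 bladder.

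**Figure D4:**
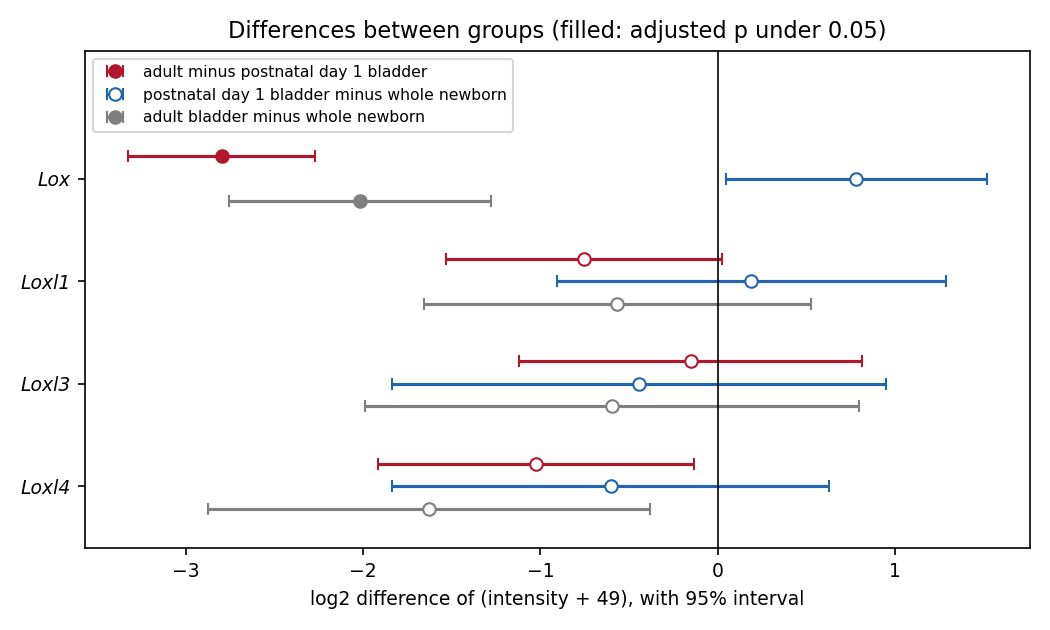
Log2 differences (x axis) with 95% intervals for the 4 measured members in the 3 comparisons, filled where the adjusted p was under 0.05. The 2 filled points are Lox in adult bladder against P1 bladder (-2.80) and against the whole newborn (-2.02).

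Genes with the most similar course over the 7 arrays were found by the root mean square difference of log2 values, each gene centred on its own mean, among 12190 genes. Nearest to Lox were Anln (anillin, a protein of cytokinesis; 0.27), Pappa2 (a protease of IGF binding proteins; 0.28), Cks2 (a subunit of cyclin-dependent kinases; 0.29), Syce2 (a synaptonemal complex protein; 0.29) and Vax1 (a homeobox factor; 0.30). Anln, for example, read 1428 ± 262 in adult, 7536 ± 235 in P1 bladder (SD, n = 3 each) and 4029 in the whole newborn. Within the family, Loxl4 lay at 0.85 from Lox, Loxl1 at 0.99 and Loxl3 at 1.31, which placed them at ranks 494, 1002 and 4457 among Lox's neighbours. The closest pair of members was Loxl1 and Loxl4, at 0.41.

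Nearest to Loxl1 were Nelfa, a subunit of the elongation factor NELF (0.14), Sptan1, a spectrin chain (0.14), 1810058I24Rik (0.15), Mpst, a sulfurtransferase (0.16), and Dnajb12, a chaperone (0.17). Nearest to Loxl3 were 5033430I15Rik (0.15), Gja4, an endothelial connexin (0.16), Edn1, the vasoconstrictor endothelin (0.16), Sh3bp2, an adaptor protein (0.16), and Zfp652, a zinc finger protein (0.17). Nearest to Loxl4 were Mall (0.14), Bcl7c (0.15), Tubb4a, a tubulin (0.19), Thbs3, a thrombospondin (0.19), and Lyve1, a hyaluronan receptor of lymphatic vessels (0.21). Thbs3 had a log2 difference of -1.28 in adult bladder (limma adjusted p = 0.0374), from 1287 ± 178 to 505 ± 90.5 (SD, n = 3 each). The other neighbours of Loxl4 did not pass (limma adjusted p 0.220 for Mall, 0.107 for Bcl7c, 0.146 for Tubb4a and 0.0907 for Lyve1). Neighbours were picked by their course over these same arrays, so their differences are not separate evidence.

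Around the enzymes, 8 lists held 78 genes for their substrates, their activation, their copper and upstream factors, of which 72 were measured and 63 tested between the ages. Of these 63, 9 fell and 1 rose in adult bladder, against 4.12% and 3.73% of all tested probe sets. The 63 hold 1 probe set a gene, unlike that background. With 1 probe set a gene in the whole fit, 14 fell and 1 rose, against 786 and 702 of 11930 tested. The median log2 difference of the 63 was -0.46, beside 0.02 over all tested probe sets. Without adult replicate 2 the counts were 16 and 1, and without P1 replicate 1 or P1 replicate 2 they were 5 and 1, of 62 tested in each case. Calls over all probe sets moved too. Lower and higher ones numbered 1267 and 952 of 22268 without adult replicate 2. Without P1 replicate 1 they were 381 and 491 of 22250, and without P1 replicate 2 they were 320 and 397 of 22252. The median of the pathway genes was -0.27 without adult replicate 1, -0.61 without adult replicate 2 and -0.31 without P1 replicate 1. Without the 2 adult bladders with gland transcripts, which leaves 1 adult array, it was -0.09 (0.05 over all probe sets tested there).

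Of 15 tested elastic fibre partners, 4 fell and 0 rose. Fbn2, a fibrillin of fetal microfibrils, fell from 26413 ± 2343 to 197 ± 97.1 (SD, n = 3 each), and Eln, the elastin that Lox and Loxl1 act on, fell from 10420.6 ± 1204 to 2474 ± 935. The fall of Eln was lost in 1 of 19 alternatives, without the 2 adult bladders with gland transcripts, which leaves 1 adult array. Mfap5, a microfibril protein, had a log2 difference of -1.87 and Emilin2, an elastin-associated glycoprotein, one of -1.72 (limma adjusted p = 0.0223, lost in 5 of 19 alternatives). Fbln5, the fibulin that brings Loxl1 to elastin, read 6220 ± 414 in adult and 8825 ± 2957 in P1 bladder and did not pass (log2 difference -0.45, limma adjusted p = 0.372). Of 7 tested fibrillar collagen chains, 2 fell: Col1a1, with a log2 difference of -1.98 (lost in the same alternative as Eln, with 1 adult array left), and Col5a1, with -2.02. Of the other 5, Col3a1 read 74495 ± 24028 and 89593 ± 8896 (log2 difference -0.31, limma adjusted p = 0.449). Of 5 tested chains of collagen IV, the network of basement membranes, 0 passed, and the most negative log2 difference was that of Col4a2 (-0.94, limma adjusted p = 0.0668).

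Among 8 tested genes of pro-enzyme processing and binding partners, 1 rose and 0 fell. The rise was in Pcolce2, an enhancer of procollagen cleavage, from 40.9 ± 42.4 to 2321 ± 1357 (SD, n = 3 each; log2 difference 4.67, limma adjusted p = 0.00165), with all P1 values under the array median. Bmp1, the protease that frees Lox, read 479 ± 187 in adult and 1441 ± 623 in P1 bladder and did not pass (-1.49, limma adjusted p = 0.0606). Of 6 tested genes of lysine hydroxylation and collagen folding, among them Plod1 (-0.91, limma adjusted p = 0.227) and Plod2 (-0.89, 0.360), 0 passed.

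Of 7 tested genes of copper supply, 1 fell: Slc31a1, the copper importer, with a log2 difference of -1.30 (limma adjusted p = 0.0362, lost in 9 of 19 alternatives). Atp7a, the pump that loads copper onto secreted enzymes, read 7882 ± 1908 and 13986 ± 1912 (log2 difference -0.84, limma adjusted p = 0.0686). Of the other copper amine oxidases, Aoc3 and Aoc1 were tested and 0 passed. Of 13 tested upstream factors, 2 fell: Ccn2, a matricellular factor induced by TGF-beta, with a log2 difference of -2.41 (limma adjusted p = 0.0237, lost in 6 of 19 alternatives), and Snai2, a transcription factor of mesenchyme, with -1.34 (0.0357, lost in 7 of 19).

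**Figure D5:**
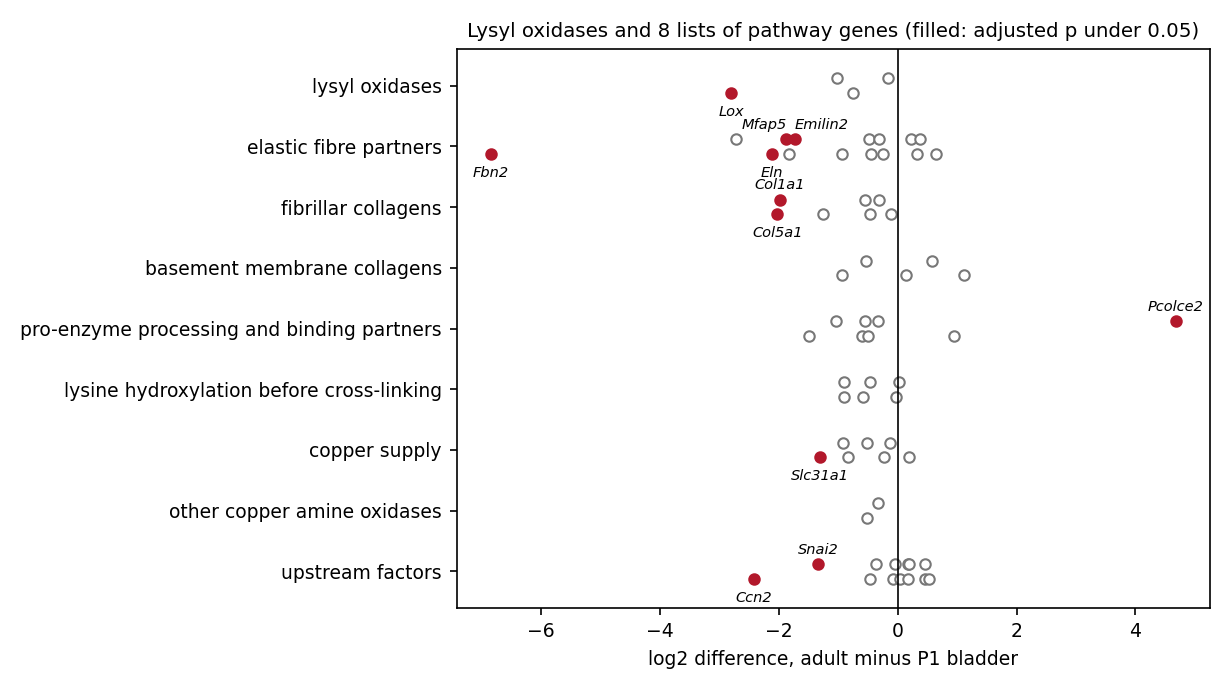
Log2 difference of adult minus P1 bladder (x axis) for each tested lysyl oxidase and for each tested gene of the 8 pathway lists (rows), filled and named where the adjusted p was under 0.05. Lox stands at -2.80, Fbn2 farthest left at -6.84, and Pcolce2 is the single filled gene right of 0.

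Markers of other tissues differed with age beside Lox. Over all tested probe sets, 4.12% passed as lower in adult bladder and 3.73% as higher. Of 7 measured skeletal muscle markers, 6 of 6 tested fell, with summed intensities of 17442 to 18255 in adult and 74956 to 111313 in P1 bladders, and 6 of 6 tested mitosis genes fell as well (1765 to 2136 against 24176 to 44896). The adult skeletal muscle sum was mostly Acta1 (15073 to 16692, log2 difference -1.78). Log2 differences were -2.31 for Ckm and -6.01 to -4.50 for Myh3, Myh8, Tnnc2 and Tnnt3. Of 7 cartilage and bone markers, 1 was tested and 0 passed (275 to 708 against 1056 to 1181, with 41286 in the whole newborn). Of these genes Myh3, Myh8, Tnnc2, Tnnt3, Col9a1, Bub1 and Aurkb entered the test through the P1 bladders alone. No marker of these lists was at 0, and their part in the fall of Lox was not tested. The 3' to 5' ratio of Actb was 3.84 to 5.15 in adult and 1.85 to 3.70 in P1 bladders, without overlap, while that of Gapdh was 15.3 to 19.6 in adult and 19.1 to 30.9 in P1 bladders. The part of RNA quality in the fall of Lox was not tested. Of 7 tested fibroblast markers 0 fell and 1 rose, and of 7 tested smooth muscle markers 0 passed. Of 4 tested leukocyte markers 1 rose (Csf1r, log2 difference 1.52, limma adjusted p = 0.0409), and of 4 tested mesothelial markers 1 rose (Gpm6a, 3.66, 0.00491). Of 2 tested adipocyte markers, Adipoq rose (3.65, limma adjusted p = 0.00461; it entered the test through the adult bladders alone) and Fabp4 fell (-0.74, 0.0345). The fall of Lox passed also without the 2 adult bladders that held gland transcripts (-2.60, limma adjusted p = 0.0182, with 1 adult array left and assumed to vary like the P1 arrays) and without both arrays of highest spike-in signal (-3.04, limma adjusted p = 0.00456).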

How the data were processed

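The deposited values are intensities, 1 per probe set and array, from 1-colour Affymetrix mouse arrays hybridised after 2 rounds of amplification, per the labels' protocols. GCOS is named in the submitters' processing notes, without a version. How probes were summarised, the scaling target and any detection calls: not given in the sources used here. After trimming 2% at each end, every array had a mean of 1500.01, which shows that the authors' values were already scaled. From the intensities, 64 controls were removed and log2(intensity + 49) was taken, 49 being the 20th percentile of all values. Of 45037 probe sets, 34945 name 1 gene, 932 several and 9160 none.

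Differences were tested 2-sided with limma 3.58.1 (R 4.3.3; lmFit, then eBayes with a trend). A probe set entered the comparison of ages (6 arrays fitted) if it exceeded the array median on 3 or more of the 6 bladder arrays, and a comparison with the whole newborn (7 arrays in 3 groups) if it did so on 1 or more of the 4 arrays compared. Fold changes of dim genes are understated by the pseudocount. The fits were tested on simulated data. Nothing says more than that each bladder is 1 sample, so p-values measure the spread between these samples, and the number of arrays limits precision. Members, gene lists and tests were chosen with earlier results of these data known. Named genes were the members, their 5 nearest genes each, up to 4 called genes a list, and exceptions; Fbln5, Col3a1, Col4a2, Bmp1, Plod1, Plod2, Atp7a, Aoc1 and Aoc3 were named after their values were seen. The closing section gives the effect of the alternatives.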

Additional observations from a re-analysis of the deposited data

How the results depend on the processing

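Lox passed in all 20 alternatives between the ages (log2 difference -3.04 to -2.60) and in all 19 against the whole newborn for adult bladder (-2.45 to -1.35). The number of members that passed between the ages, 1, rose to 3 with array weights (Lox, Loxl1, Loxl4) and to 2 without both bladder arrays of highest spike-in signal, and it was 1 to 2 when single arrays were left out. Calls over all probe sets between the ages went from 1829 of 23304 to 4660 with array weights. They were 1873 of 20885 without both spike-in-rich arrays and 2219 of 22268 without adult replicate 2. For adult bladder against the whole newborn, 1 became 2 with array weights, with 1 probe set a gene and with the mean of a gene's probe sets (Loxl4 each time). It became 3 without both spike-in-rich bladder arrays, with the whole newborn kept. Calls over all probe sets there rose from 3255 of 28062 to 8364 with array weights and 6130 of 27035 without those bladder arrays. They were 2731 of 13504 with 1 probe set a gene and 2599 of 13544 with the mean of a gene's probe sets. For P1 bladder against the whole newborn, 0 became 1 with median centring (Lox, 1.46). The cause of these changes was not tested. Differences that changed sign, all of members that did not pass, were Loxl3 between the ages without P1 replicate 1 (0.23, the highest of a range from -0.61 when single arrays were left out); Loxl3 (0.24) and Loxl4 (0.0788) in P1 bladder with centring, and Loxl3 there without P1 replicate 2 (0.0149, in a range from -0.83 when single arrays were left out); and in adult bladder Loxl3 (0.0720) and Loxl1 (0.10) with centring, and Loxl1 without both adult bladders with gland transcripts (0.15). The order of the 3 groups stayed the same with centring for 1 of 4 members. Between the ages, Loxl4 failed the stricter filter (70th percentile) and went untested without any 1 P1 array or both spike-in-rich arrays. Of the pathway genes, 9 fell, and 4 to 24 did in the alternatives (24 with array weights). Leaving out the spike-in-rich or the gland-bearing arrays was chosen after seeing the data. Over all probe sets, calls between the ages numbered 1829, and 434 to 4660 in the alternatives; against the whole newborn, higher and lower calls went from 650 and 1451 to 1651 and 859 for P1 and from 1235 and 2020 to 2680 and 1216 for adult bladder with centring. No paired analysis was possible because the labels give the samples no shared replicate numbers.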
